A study of Homo sapiens with 6 samples.

Results

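The G1 restriction point genes described here were 9 of the 60612 genes in the table: the D-type cyclin genes CCND1, CCND2 and CCND3, the cyclin-dependent kinase genes CDK4, CDK6 and CDK2, and the retinoblastoma family genes RB1, RBL1 and RBL2. They were chosen by name, with the difference in CCND1 between these libraries already known, so the members' differences are given as a description and no p-value is attached to them. RNA was measured in SH-SY5Y, an established human neuroblastoma line of adrenergic neuronal type. The 6 libraries comprised 3 from cells whose label gives CDKN2B-AS1 overexpression, this being the long noncoding transcript antisense to the CDK inhibitor gene CDKN2B, and 3 from cells infected with a control vector, named stuffer in the sample titles. The sources used here do not give the promoter and dose of the vector, the time after infection, or whether cells were pooled or cloned. In the column names the labelled overexpression bears the tag LVx2 and the control vector LVx1, which the labels do not explain, so any difference in handling cannot be told apart from the group. Because nothing states that the libraries came from separate cultures, the spread between them may be technical.

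D-type cyclins bind CDK4 and CDK6 in G1, and these kinases phosphorylate the RB family proteins. RB proteins in the unphosphorylated state hold E2F transcription factors in check, and their further phosphorylation by cyclin E with CDK2 releases the genes of S phase. In neuroblastoma the branch made of cyclin D1 and CDK4 is known for high expression and, in some tumours, gene amplification.

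Levels are in FPKM, a fragment number divided by gene length and by the fragments assigned in the library, so genes of different length can be compared. Depth recovered from the values ran from 20466583 to 48996425 fragments in the labelled overexpression libraries and from 29048596 to 45102020 in the control vector libraries. CDKN2B-AS1 itself had 0.338, 0.304 and 0.353 FPKM in labelled overexpression replicates 1, 2 and 3, against 0.272, 0.288 and 0.191 FPKM in control vector replicates 1, 2 and 3, so the groups did not overlap but the level stayed low in both. Of 10 adrenergic markers 9 averaged at least 1 FPKM, with sums of 1196 to 1286 FPKM in labelled overexpression libraries and 1129 to 1278 FPKM in control vector libraries. TH, the rate-limiting enzyme of catecholamine synthesis, was at or near 0. Of 14 markers of fibroblasts, immune, epithelial and Schwann cells 4 averaged at least 1 FPKM, with sums of 26 to 32.5 FPKM and 20.3 to 36.7 FPKM in the same order of groups, and PTPRC, CD3E and KRT5 were at 0. Control vector replicate 3 stood apart from the other libraries on the second principal component.

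The pathway closes on the promoters of its own members, of which RBL1 is the textbook case of a gene bound by E2F. The 250 bases before the RefSeq start of RBL1 (GRCh38.p14, minus strand, chr20:37095998-37096247) are shown with matches to the E2F motif TTTNNCGC in capitals. The 250 bases before a RefSeq start of CDK6 (GRCh38.p14, minus strand, chr7:92836574-92836823), the kinase gene with the highest fold change, are shown beside them and hold no such match.
RBL1: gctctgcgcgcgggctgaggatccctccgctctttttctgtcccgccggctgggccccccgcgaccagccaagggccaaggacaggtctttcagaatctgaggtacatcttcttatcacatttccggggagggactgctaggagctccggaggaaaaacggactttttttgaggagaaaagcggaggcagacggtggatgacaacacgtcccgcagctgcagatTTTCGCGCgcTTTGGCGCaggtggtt
CDK6: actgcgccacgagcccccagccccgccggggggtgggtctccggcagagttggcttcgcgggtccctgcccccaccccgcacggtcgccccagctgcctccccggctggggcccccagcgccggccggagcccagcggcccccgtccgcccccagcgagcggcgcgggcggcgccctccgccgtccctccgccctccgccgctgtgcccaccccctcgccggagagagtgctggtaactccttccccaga
The RBL1 matches, TTTCGCGC and TTTGGCGC, lie 26 to 19 and 16 to 9 bases before the start and do not overlap each other or any other motif searched. On both strands, TTTNNCGC was found in 5.92% of the 35116 RefSeq promoter windows of this length. The CDK6 window holds 3 matches to the Sp1 motif GGGCGG, which 42.6% of all windows hold. Neither window has a match to the cyclic AMP response element letters ACGTCA, the AP-1 motif TGANTCA or the cell cycle genes homology region TTTGAA. The window of another RefSeq start of CDK6 (chr7:92833960-92834209), not shown, holds 1 match to ACGTCA, which 7.1% of all windows hold. That of RB1 holds 1 match to TGANTCA, which 6.57% of all windows hold. A match describes these letters only. RefSeq windows were matched for CCND3, CDK4, CDK6, RB1, RBL1 and RBL2.

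**Figure D1:**
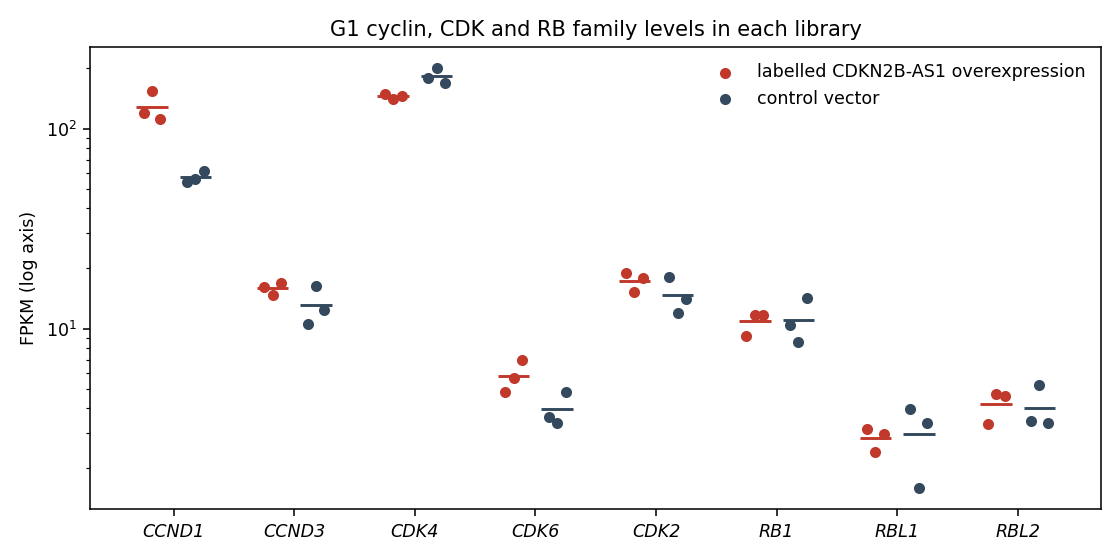
FPKM on a log axis for the 8 members above 0, with a point for each library and a line at the group mean, labelled overexpression left of control vector for each gene. CCND1 points of the labelled overexpression, at 112 to 154 FPKM, all lie above those of the control vector, at 54.2 to 61.3 FPKM; CDK4 is the other gene whose groups do not overlap.

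Among the cyclins, CCND1 (ENSG00000110092, chr11:69641156-69654474, plus strand, in the coordinates of the deposited table on GRCh38) encodes cyclin D1, the activating subunit of CDK4 and CDK6. It had 119, 154 and 112 FPKM in labelled overexpression replicates 1, 2 and 3, against 54.2, 55.9 and 61.3 FPKM in control vector replicates 1, 2 and 3. Every labelled overexpression library lay above every control vector library, with replicate 2 the highest of all. The means were 128 ± 22.4 FPKM with labelled overexpression and 57.1 ± 3.73 FPKM with control vector (SD, n = 3 each). The difference on the log2(FPKM + 0.5) scale was 1.15 (SE 0.13), a fold of 2.22. In bulk RNA, a higher level per cell and a larger share of cells carrying the transcript cannot be told apart. The coefficient of variation was 17.4% in the labelled overexpression libraries and 6.53% in the control vector libraries, so the group with the higher level was also the more variable. By level, CCND1 ranked 506, 364 and 493 among the 13984 tested genes in the labelled overexpression libraries and 1178, 1146 and 1024 in the control vector libraries. These values rested on 15585, 15008 and 26215 fragments with labelled overexpression and 11629, 7725 and 12669 with control vector. The highest level was in the library with the lowest total depth, and the part of depth in it was not tested.

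Of the 9 members 8 passed the filter of at least 1 FPKM in at least 3 of the 6 libraries, CCND2 being the exception. CCND1 was the single member past an adjusted p of 0.05 over all tested genes, in the direction of labelled overexpression, and 0 members passed in the other direction. Of the 13984 tested genes 159, or 1.14%, passed. In the direction of labelled overexpression 74 genes passed, 0.529%, and in the other direction 85, 0.608%. That split depends on scaling, being 181 and 52 genes after rescaling every library to a common FPKM total and 59 and 119 with median-of-ratios factors. Since CCND1 was among the values that led to the choice of members, nothing is read from this count. CCND1 no longer passed without labelled overexpression replicate 1 or 2 or control vector replicate 1 or 2, while its log2 fold change stayed between 1.01 and 1.24; the count over all genes was 0 to 139 when 1 library was left out, and 0 without the filter or without the trend. The median log2 fold change of the 8 members was 0.16, beside 0.05 over all tested genes, and 6 of the 8 lay above 0 beside 56.8% of all tested genes. CCND1 and CDK4 were the 2 members whose groups did not overlap, as was so for 24.1% of all tested genes.

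**Figure D2:**
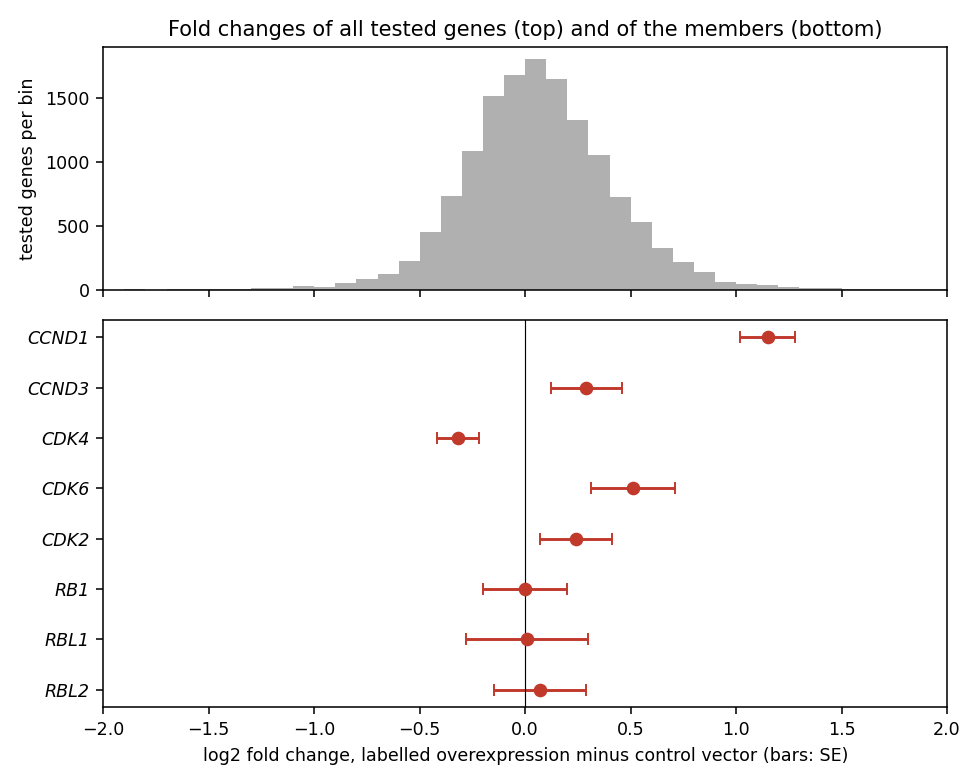
The upper panel counts tested genes per bin of log2 fold change (labelled overexpression minus control vector, on log2(FPKM + 0.5)) between -2.0 and 2.0, the few genes beyond these limits not being drawn; the lower panel gives the 8 tested members with bars of 1 SE. CCND1 at 1.15 lies in the right tail, CDK4 at -0.32 on the other side of 0, and RB1, RBL1 and RBL2 lie at 0.07 or nearer to 0.

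CCND3 (ENSG00000112576, chr6:41934934-42050357, minus strand) encodes cyclin D3, the D-type cyclin of many haematopoietic cells. It had 16.2, 14.8 and 16.9 FPKM in labelled overexpression replicates 1, 2 and 3, against 10.6, 16.3 and 12.4 FPKM in control vector replicates 1, 2 and 3. The groups overlapped, because control vector replicate 2 lay above labelled overexpression replicates 1 and 2. Mean levels were 16 ± 1.06 and 13.1 ± 2.9 FPKM in the same order (SD, n = 3 each), and the log2 fold change was 0.29 (SE 0.17).

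CCND2 (ENSG00000118971, chr12:4269771-4305353, plus strand) encodes cyclin D2, which is known from neural progenitors. It was listed at 0 in all 6 libraries, as were 3717 of the 19942 protein-coding genes in the table. A count of 0 allows up to 3 fragments, or 0.00767 to 0.0184 FPKM in the labelled overexpression libraries and 0.00833 to 0.0129 FPKM in the control vector libraries. This limit covers counting error only. CCND2-AS1, on the opposite strand, was also listed at 0. A transcribed row does lie over the same exons: RP11-388F6.5, annotated as protein-coding on the same strand, shares 999 of its 3435 exonic bases with CCND2, 12.5% of the CCND2 exons, and 1711 with TIGAR, a regulator of glycolysis. RP11-388F6.5 had 6.26, 5.69 and 8.28 FPKM in labelled overexpression replicates 1, 2 and 3, against 5.88, 4.78 and 6.11 FPKM in control vector replicates 1, 2 and 3. These groups overlapped. The sources used here do not say how the authors' counting divided fragments among rows that share exons. For the shared bases alone, fragments of CCND2 and of RP11-388F6.5 therefore cannot be told apart. The rest of the 7988 exonic bases of CCND2 had no counted fragment in any of the 6 libraries.

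With CCND2 at 0, the D-type cyclin transcripts came from CCND1 and CCND3. Their summed level was 135, 169 and 129 FPKM in labelled overexpression replicates 1, 2 and 3, against 64.8, 72.2 and 73.7 FPKM in control vector replicates 1, 2 and 3. CCND1 made up 88%, 91.2% and 86.9% of that sum with labelled overexpression and 83.6%, 77.4% and 83.1% with control vector. The shares did not overlap, so the D-type cyclin sum was larger and its CCND1 share higher in the labelled overexpression libraries. CCND1 stood at 8.12 ± 1.99 times CCND3 with labelled overexpression and 4.48 ± 0.92 times CCND3 with control vector (SD, n = 3 each). All of these follow from the CCND1 values above.

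Among the kinases, CDK4 (ENSG00000135446, chr12:57747727-57756013, minus strand) encodes a kinase that is inactive until a D-type cyclin binds it. It had 149, 141 and 145 FPKM in labelled overexpression replicates 1, 2 and 3, against 178, 200 and 169 FPKM in control vector replicates 1, 2 and 3. All 3 labelled overexpression libraries lay below all 3 control vector libraries. The means were 145 ± 3.67 FPKM with labelled overexpression and 182 ± 15.7 FPKM with control vector (SD, n = 3 each), and the log2 fold change was -0.32 (SE 0.10). CDK4 did not pass the adjusted threshold. The difference was -0.21 when every library was rescaled to a common FPKM total, since the totals themselves separated the groups, at 349703 to 365333 FPKM with labelled overexpression and 381310 to 400215 FPKM with control vector.

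CDK6 (ENSG00000105810, chr7:92604921-92836573, minus strand) encodes the other kinase activated by D-type cyclins. It had 4.82, 5.66 and 6.94 FPKM in labelled overexpression replicates 1, 2 and 3, against 3.63, 3.37 and 4.82 FPKM in control vector replicates 1, 2 and 3. The groups met at labelled overexpression replicate 1 and control vector replicate 3, which were level to 3 digits. The means were 5.81 ± 1.07 and 3.94 ± 0.774 FPKM in the same order (SD, n = 3 each), and the log2 fold change was 0.51 (SE 0.20), which did not pass.

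CDK2 (ENSG00000123374, chr12:55966781-55972789, plus strand) encodes the kinase that works with cyclins E and A after the D-type step. It had 19, 15.2 and 17.8 FPKM in labelled overexpression replicates 1, 2 and 3, against 18.1, 12 and 14 FPKM in control vector replicates 1, 2 and 3. The groups overlapped, control vector replicate 1 lying above labelled overexpression replicates 2 and 3. Mean levels were 17.3 ± 1.92 and 14.7 ± 3.08 FPKM in the same order (SD, n = 3 each), and the log2 fold change was 0.24 (SE 0.17).

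CDK4 transcripts outnumbered those of CDK6 per length in every library, by 30.9, 25 and 21 times in labelled overexpression replicates 1, 2 and 3 and by 49.1, 59.1 and 35 times in control vector replicates 1, 2 and 3. The ratio was thus lower in each labelled overexpression library than in any control vector library. D-type cyclin transcripts stood at 0.88, 1.15 and 0.849 times the sum of CDK4 and CDK6 in the labelled overexpression libraries, against 0.356, 0.356 and 0.424 times in the control vector libraries. The mean ratio was 0.959 ± 0.164 with labelled overexpression and 0.379 ± 0.0396 with control vector (SD, n = 3 each). The sum of CDK4 and CDK6 was 154, 147 and 152 FPKM with labelled overexpression and 182, 203 and 174 FPKM with control vector, so both terms of the ratio differed between the groups without overlap. These are ratios of RNA and give no measure of assembled kinase.

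**Figure D3:**
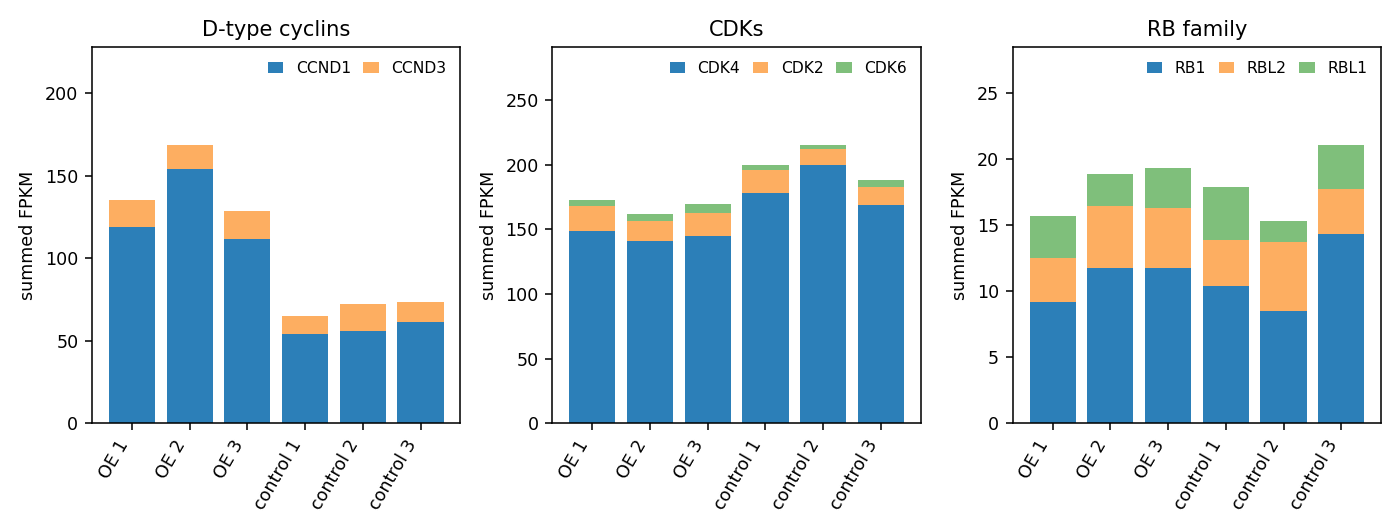
Summed FPKM of the D-type cyclins, the CDKs and the RB family in each library, stacked by gene, with labelled overexpression (OE) libraries left of control vector libraries; each panel has its own axis from 0. The cyclin stack is 129 to 169 FPKM with labelled overexpression and 64.8 to 73.7 FPKM with control vector, with CCND1 the larger share in every library, whereas the RB family stacks overlap between groups.

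In the RB family, RB1 (ENSG00000139687, chr13:48303744-48599436, plus strand) encodes the retinoblastoma protein, the main substrate of CDK4 and CDK6. It had 9.19, 11.7 and 11.7 FPKM in labelled overexpression replicates 1, 2 and 3, against 10.4, 8.52 and 14.3 FPKM in control vector replicates 1, 2 and 3. The control vector libraries held both the lowest and the highest value. The means were 10.9 ± 1.46 and 11.1 ± 2.95 FPKM in the same order (SD, n = 3 each), and the log2 fold change was -0.00 (SE 0.20).

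RBL1 (ENSG00000080839, chr20:36996349-37095997, minus strand) encodes p107, the family member whose own promoter carries the E2F matches printed above. It had 3.15, 2.42 and 2.97 FPKM in labelled overexpression replicates 1, 2 and 3, against 3.98, 1.59 and 3.37 FPKM in control vector replicates 1, 2 and 3. Control vector values again lay on both sides of the labelled overexpression values, and the log2 fold change was 0.01 (SE 0.29), the least precise of the members.

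RBL2 (ENSG00000103479, chr16:53433977-53491648, plus strand) encodes p130, the family member of quiescent cells and a subunit of the DREAM repressor complex. It had 3.34, 4.69 and 4.6 FPKM in labelled overexpression replicates 1, 2 and 3, against 3.47, 5.21 and 3.38 FPKM in control vector replicates 1, 2 and 3. The groups overlapped, and the log2 fold change was 0.07 (SE 0.22).

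The RB family summed to 17.9 ± 1.96 FPKM with labelled overexpression and 18.1 ± 2.87 FPKM with control vector (SD, n = 3 each). RB1 supplied 60.5 ± 1.82% of that sum with labelled overexpression and 60.6 ± 6.5% with control vector. CCND1 stood at 11.9 ± 2 times RB1 with labelled overexpression and 5.36 ± 1.14 times RB1 with control vector, and the 3 ratios of each group did not overlap. With standard errors of 0.20 to 0.29, a moderate difference in an RB family gene was not detectable in these libraries.

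Ordered by level in the labelled overexpression libraries, CDK4 and CCND1 came first and overlapped each other, CDK4 at 141 to 149 FPKM and CCND1 at 112 to 154 FPKM. CDK2 and CCND3 followed and also overlapped, then RB1, CDK6, RBL2 and RBL1, each below the range of the gene before it. In the control vector libraries CDK4, at 169 to 200 FPKM, lay above CCND1, at 54.2 to 61.3 FPKM, with no overlap. CDK2, CCND3 and RB1 then overlapped each other, as did RBL2, CDK6 and RBL1. CCND1 thus reached the range of CDK4 in the labelled overexpression libraries and lay below it in the control vector libraries.

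Several members share exonic bases with another gene, and the sources used here do not say whether fragments were assigned by strand, so such pairs are uncertain. LTO1, a gene of ribosome biogenesis and iron-sulfur protein maturation on the opposite strand, shares 497 bases with CCND1, which is 10.4% of the CCND1 exons and 6.31% of its own. LTO1 had 6.4, 8.62 and 5.85 FPKM in labelled overexpression replicates 1, 2 and 3, against 2.76, 3.31 and 3.29 FPKM in control vector replicates 1, 2 and 3. Its groups did not overlap, its log2 fold change was 1.03 (SE 0.19), and its fragment number amounted to 8.43% to 9.81% of that of CCND1 in every library. LTO1 was past the adjusted threshold of 0.05, but not without the filter, without the trend or without any 1 of the 6 libraries, where its log2 fold change was 0.87 to 1.13. Across the 6 libraries the Pearson r of LTO1 with CCND1 was 0.993, a description over libraries in which the genes share annotated bases and whether they share fragments was not tested.

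TSPAN31, a tetraspanin gene on the opposite strand of CDK4, covers 1369 of the 3094 exonic bases of CDK4, or 44.2%. It had 33, 34.9 and 33.1 FPKM in labelled overexpression replicates 1, 2 and 3, against 38.1, 45.2 and 38.5 FPKM in control vector replicates 1, 2 and 3. TSPAN31 thus had the same order of groups as CDK4, and its fragments amounted to 36.2% to 41.9% of those of CDK4. RP11-973D8.4 lies with all 565 of its exonic bases inside CDK2 exons, on the opposite strand, and averaged 13.1 ± 2.5 FPKM with labelled overexpression and 8.78 ± 1.64 FPKM with control vector (SD, n = 3 each). The melanosome gene PMEL shares 89 bases with CDK2. AKTIP and RP11-44F14.7, on the opposite strand, share 609 and 721 bases with RBL2, or 7.51% and 8.89% of its exons. CDK6-AS1 shares 81 bases with CDK6 and averaged 1.17 ± 0.326 FPKM with labelled overexpression and 1.37 ± 1.41 FPKM with control vector. Within the spans of members but sharing no exonic base were RCBTB2 in RB1 (3.1 ± 0.866 and 2.56 ± 0.375 FPKM in the same order of groups), MIR6759 and MARCHF9 at CDK4 and RNU6-1153P in RBL2.

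**Figure D4:**
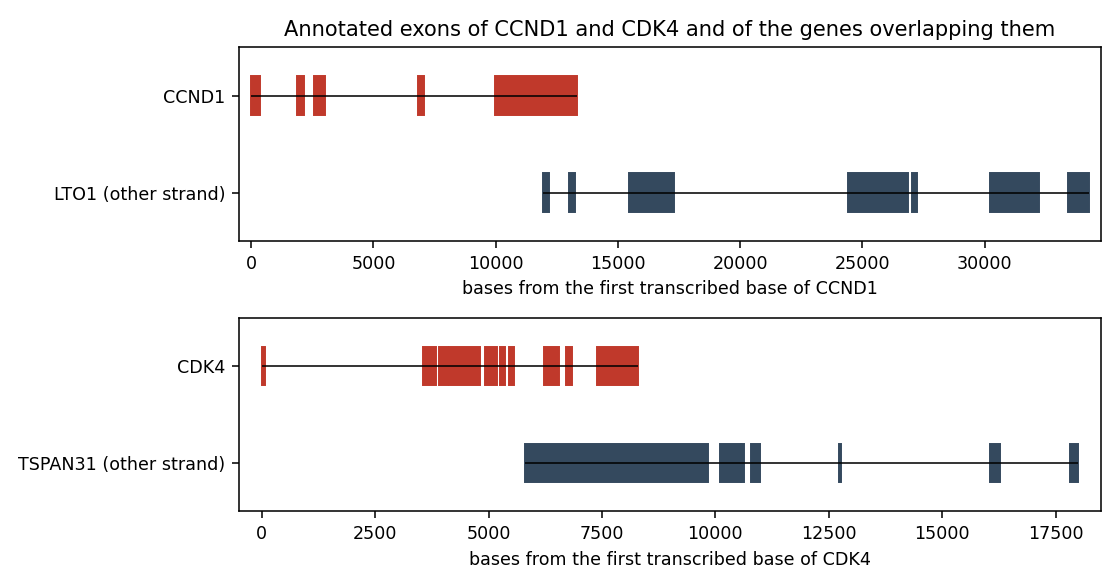
Annotated exons (boxes) of CCND1 and LTO1 and of CDK4 and TSPAN31, in bases from the first transcribed base of the member, each pair on opposite strands. LTO1 exons reach into the last exon of CCND1, and a long TSPAN31 exon lies over several exons of CDK4.

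Apart from LTO1, the nearest genes to CCND1 with a mean of at least 0.5 FPKM lay 479 kb or more away. Within 1000 kb on either side 58 rows were listed, 27 of them at 0 in all libraries and 14 with a mean of at least 0.5 FPKM. On the side of lower coordinates the nearest such genes were RP11-554A11.11 at 479 kb, the lysosomal channel gene TPCN2 at 505 kb and the helicase gene IGHMBP2 at 701 kb. On the side of higher coordinates they were the death receptor adaptor FADD at 549 kb, RP11-805J14.5 at 552 kb and the liprin gene PPFIA1 at 616 kb. All 6 overlapped between the groups. RP11-554A11.11 was below the filter and not tested, and the other 5 did not pass. These 6 rows are not 6 separate loci. RP11-805J14.5 lies within the span of FADD on the opposite strand, and the spans of RP11-554A11.11 and TPCN2 overlap on the same strand. Whether these rows share fragments was not tested. FADD, for example, averaged 13.3 ± 0.167 FPKM with labelled overexpression and 10.9 ± 2.31 FPKM with control vector (SD, n = 3 each), and its log2 fold change was 0.29 (SE 0.16).

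The genes whose level across the 6 libraries was most like that of CCND1 were chosen by Pearson r on log2(FPKM + 0.5) among 7404 genes averaging at least 5 FPKM. They were APLP1, of the amyloid precursor protein family, at 0.9966, the RNA-binding protein gene HNRNPA1 at 0.9955, LTO1 at 0.9930, the nucleolin gene NCL at 0.9926 and ACADVL, of mitochondrial fatty acid oxidation, at 0.9924. With 6 libraries in 2 groups any gene that separates the groups evenly gets a high r, and 86 genes reached an r over 0.95. Their own differences were smaller than that of CCND1. NCL had 87.6, 97.3 and 82.5 FPKM in labelled overexpression replicates 1, 2 and 3, against 61.8, 66 and 66.9 FPKM in control vector replicates 1, 2 and 3, a log2 fold change of 0.45 (SE 0.10). In both NCL and CCND1, labelled overexpression replicate 2 was the highest library, which a choice by r favours and which is no further likeness.

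The other genes of the pathway were described by 8 lists holding 82 genes, 76 of them past the filter. These lists, like the members, were chosen with earlier results of these data known. Their p-values and counts therefore describe these libraries and are not independent tests. By limma-trend with Benjamini-Hochberg adjustment, 3 were higher and 1 was lower in the labelled overexpression libraries at an adjusted p under 0.05, and 72 did not pass, beside 1.14% of all tested genes that passed in either direction. The median log2 fold change of the 76 was 0.18, beside 0.05 over all tested genes, and 55 of them (72.4%) lay above 0, beside 56.8% of all tested genes. Upstream of CCND1, FOS, a subunit of the AP-1 factor and an immediate early gene, had 1.72, 1.2 and 1.76 FPKM in labelled overexpression replicates 1, 2 and 3, against 15.8, 18.5 and 46.6 FPKM in control vector replicates 1, 2 and 3. FOS was thus far lower in every labelled overexpression library, and control vector replicate 3 was the highest by a wide margin. Its log2 fold change was -3.58 (SE 0.35, adjusted p = 0.015 by limma-trend with Benjamini-Hochberg adjustment). With 1 library left out, the adjusted p of FOS by limma-trend was 0.062 without labelled overexpression replicate 1, 0.0537 without its replicate 2 and 0.0754 without control vector replicate 2, and it stayed under the threshold without each of the others; it was 0.132 without the filter and 0.104 without the trend. FOS was the one gene to pass among the 11 tested of 14 factors known to act on the CCND1 promoter, whose median was 0.09. The AP-1 subunit JUNB was at -0.54 (SE 0.15), the Wnt effector CTNNB1 at 0.44 (SE 0.13) and MYC at -0.38 (SE 0.15), none of which passed. FOSB, FOSL2 and MYCN were below the filter.

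Downstream of the RB family, 2 of 18 E2F-regulated S phase genes passed, both higher with labelled overexpression, and 16 of the 18 (88.9%) lay above 0, with a median of 0.34. Over all tested genes 0.529% passed in that direction, 56.8% lay above 0 and the median was 0.05. After rescaling to a common FPKM total the median of all tested genes was 0.15. That rescaling also raised the 2 genes that passed, UHRF1 from 0.88 to 0.99 and RRM1 from 0.58 to 0.69. The list's own median was computed for the fit as reported only. UHRF1, needed for maintenance of DNA methylation, had 42.9, 50.3 and 39.8 FPKM in labelled overexpression replicates 1, 2 and 3, against 21.4, 25.3 and 25 FPKM in control vector replicates 1, 2 and 3. Its log2 fold change was 0.88 (SE 0.13, adjusted p = 0.028 by limma-trend with Benjamini-Hochberg adjustment), with no overlap of the groups. RRM1, the large subunit of ribonucleotide reductase, had 74.2, 71.8 and 81.8 FPKM with labelled overexpression, against 53.5, 46.8 and 51.5 FPKM with control vector. Its log2 fold change was 0.58 (SE 0.10, adjusted p = 0.039 by limma-trend with Benjamini-Hochberg adjustment). RRM1-AS1 lies on the opposite strand of RRM1. Shared exonic bases were counted for the members only, so any such sharing by RRM1 or the other list genes was not tested. With 1 library left out, UHRF1 passed by limma-trend only without control vector replicate 3 (adjusted p = 0.0302) and was at 0.0636 to 0.111 without any other, and RRM1 was at 0.0527 to 0.141 whichever library was left out. Without the filter and without the trend the adjusted p was 0.144 and 0.13 for UHRF1 and 0.148 and 0.16 for RRM1. The next by p were the helicase subunit MCM4 at 0.46 (SE 0.10) and the small reductase subunit RRM2 at 0.53 (SE 0.12), which did not pass here but did after rescaling to a common FPKM total and with array weights. PCNA, the sliding clamp, stood at -0.27 (SE 0.11) and did not pass either.

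Among 12 tested genes of the turnover of D-type cyclins and other G1 proteins, FBXW8 passed. FBXW8 is an F-box protein reported to direct cyclin D1 to degradation. It had 5.75, 6.24 and 5.69 FPKM in labelled overexpression replicates 1, 2 and 3, against 1.92, 3.4 and 2.04 FPKM in control vector replicates 1, 2 and 3, with no overlap. Its log2 fold change was 1.15 (SE 0.22, adjusted p = 0.0443 by limma-trend with Benjamini-Hochberg adjustment). Whichever library was left out, the adjusted p of FBXW8 by limma-trend was above the threshold, at 0.0633 to 0.179, as it was without the filter (0.195) and without the trend (0.133). The list's median was 0.15. CKS1B, a CDK-binding subunit, at -0.32 (SE 0.10), BTRC, an F-box protein, at 0.46 (SE 0.18) and the scaffold CUL1 at 0.20 (SE 0.13) did not pass, and CRYAB was listed at 0.

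In the remaining 5 lists no tested gene passed. The median was 0.27 over 10 E2F and DP factors, where the atypical E2F gene E2F7 was nearest at 1.07 (SE 0.26, adjusted p = 0.0893 by limma-trend with Benjamini-Hochberg adjustment), and E2F3 and TFDP1 were at 0.51 (SE 0.20) and 0.35 (SE 0.17). E2F7 had 4.38, 3.46 and 4.22 FPKM in labelled overexpression replicates 1, 2 and 3, against 1.21, 2.63 and 1.33 FPKM in control vector replicates 1, 2 and 3. Over 6 other G1 and S phase cyclins and CDK1 the median was 0.12, with CCNE1 (cyclin E1) at 0.77 (SE 0.35), CCNA2 (cyclin A2) at 0.12 (SE 0.10) and CDK1 at -0.25 (SE 0.18). Over 8 genes of the CDK-activating kinase and of CDK tyrosine phosphorylation it was 0.19, with the phosphatase genes CDC25B at 0.37 (SE 0.11) and CDC25A at 0.67 (SE 0.21) and the kinase gene PKMYT1 at 0.34 (SE 0.15). Over 6 genes of the MuvB core and B-MYB it was 0.05, with LIN52 at -0.41 (SE 0.19), MYBL2 at 0.32 (SE 0.22) and LIN37 at 0.22 (SE 0.21).

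The CDK inhibitors act on the kinases among the members, and 5 of 7 passed the filter, with a median of 0.21. CDKN2C, an inhibitor of CDK4 and CDK6, was at 0.40 (SE 0.14), CDKN1A, which encodes p21, at 0.21 (SE 0.12) and CDKN2A at -0.30 (SE 0.20), and none passed. On chromosome 9 the span of CDKN2A overlaps that of CDKN2B-AS1 on the opposite strand. CDKN2B lies wholly within the span of CDKN2B-AS1, also on the opposite strand. Whether these rows share fragments was not tested. CDKN2B was below the filter, at 0.0263 ± 0.00126 FPKM with labelled overexpression and 0.0484 ± 0.00801 FPKM with control vector (SD, n = 3 each), a level of few fragments. CDKN1B, which encodes p27, was below the filter too, with 0.785, 0.987 and 0.763 FPKM in labelled overexpression replicates 1, 2 and 3, against 0.458, 0.465 and 0.411 FPKM in control vector replicates 1, 2 and 3. Its groups did not overlap, and it was not tested.

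**Figure D5:**
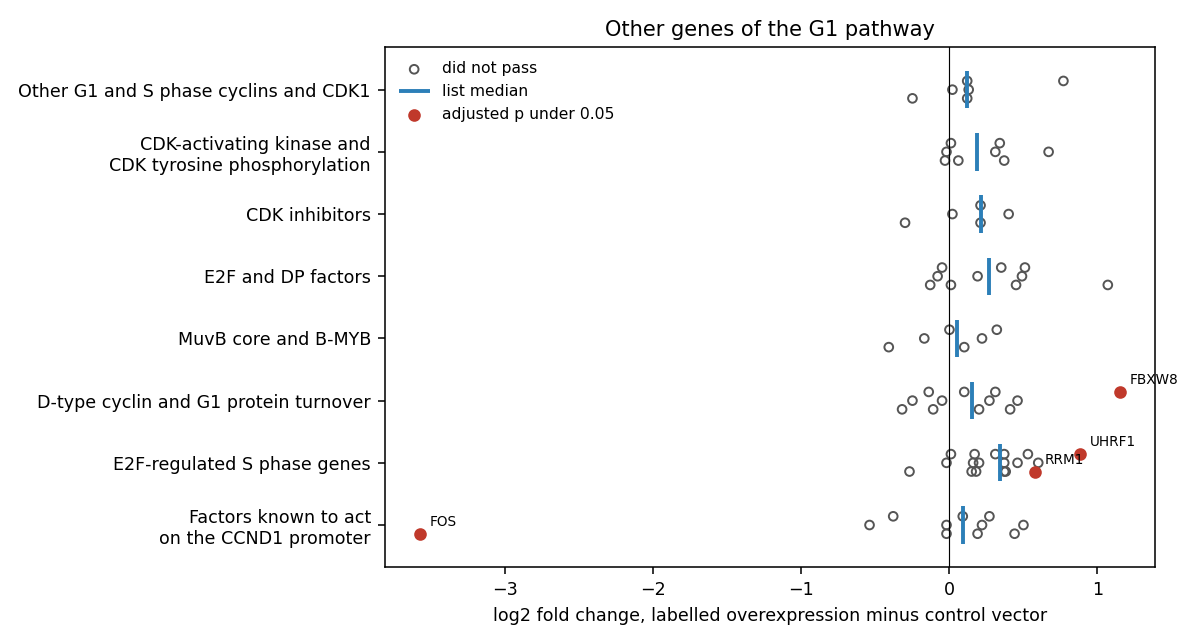
Log2 fold change (labelled overexpression minus control vector) of each tested gene in the 8 pathway lists, filled where the adjusted p was under 0.05, with a bar at each list's median. FBXW8, UHRF1 and RRM1 are filled to the right of 0 and FOS far to the left at -3.58; list medians run from 0.05 to 0.34.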

How the data were processed

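Values are FPKM in the table the authors deposited, 1 column a library, with gene names, types, positions and lengths per the file headers. The labels' protocols give a column RNA kit, SMART-seq HT cDNA and paired-end reads, while alignment with STAR 2.7.9, counting with featureCounts 2.0.1 and the builds GRCh38.p13 and hg38 come from the submitters' processing notes. Options, strand setting and annotation release are not given in the sources used here. Fragments were recovered from the FPKM steps as multiples of 0.01 (tolerance 0.001, up to 1000 fragments) and were whole in 44.2% to 49% of values, so no count model was the main test; an FPKM fit with limma was.

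The 13984 genes that reached 1 FPKM in 3 or more of the 6 libraries were fitted on log2(FPKM + 0.5) with limma 3.58.1 in R 4.3.3, with a mean-variance trend (limma-trend), all 6 libraries, no covariate, a two-sided test and Benjamini-Hochberg adjustment over all tested genes at 0.05. Fold changes are labelled overexpression minus control vector and understate changes of low genes. The fit was checked on simulated data, where not all changed genes were recovered, so a gene that did not pass may still differ. The members and gene lists were chosen with earlier results of these data known. Named were all members, in each pathway list the genes that passed or, where none did, the 3 of smallest p, rows of at least 0.5 FPKM overlapping a member, the 3 nearest such genes on each side of CCND1, the 5 genes most like CCND1, and CDKN2B-AS1; TIGAR, CDKN1B, CDKN2B, PCNA and the genes next in p in lists with a gene that passed were named after their values were seen. Alternatives were other pseudocounts, no filter, other scalings, no trend, array weights, limma-voom on recovered fragments, a replicate block and leaving out each library. Promoter letters are RefSeq's (GRCh38.p14).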

Additional observations from a re-analysis of the deposited data

How the results depend on the processing

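The log2 fold change of CCND1 lay between 1.01 and 1.24 when each library was left out in turn. It reached at most 1.26 under the other alternatives, and CCND1 passed the threshold in 9 of 15. Because CCND1 was among the values that led to the choice of members, nothing is read from this or from the member counts below. Of 120 values of members under alternatives 119 moved by less than the spread between replicates (1 SD on the log2 scale) and 1, CDK4 after rescaling to a common total, was -0.21 in place of -0.32. Of the named genes that had passed, CCND1, LTO1, FOS, UHRF1, RRM1 and FBXW8, none changed sign under any of the 15 alternatives, whereas RB1, RBL1 and RBL2, all near 0, took either sign.

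The number of genes that passed was 159, and it was 0 without the filter on low values (3538 at an unadjusted p under 0.05), 0 without the trend (2304 at an unadjusted p under 0.05), 265 with array weights, 127 with limma-voom and 229 with the replicate block. It ran from 0 to 139 when each library was left out: 0 without labelled overexpression replicate 1, 0 without its replicate 2, 0 without control vector replicate 2, 3 without labelled overexpression replicate 3, 3 without control vector replicate 1 and 139 without control vector replicate 3. At an unadjusted p under 0.05 the 3 fits with 0 had 1689, 1612 and 2274 genes. The number of members that passed was 0 without the filter and 0 without the trend, and 0 to 1 when a library was left out. For pathway genes, 4 in the fit as reported, it was 0 without the filter, 0 without the trend, 6 after rescaling to a common total, 6 with array weights (MCM4 and RRM2 being added in both) and 0 to 2 when a library was left out. Fewer samples remain in the fits that leave out a library, and the cause of the other losses was not tested.

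Over the 15 alternatives FOS passed in 10 (adjusted p 0.00146 to 0.132 by limma), UHRF1 in 8 (0.0161 to 0.144), FBXW8 in 7 (0.0279 to 0.195) and RRM1 in 7 (0.0258 to 0.16). Rescaling to a common total gave 181 higher and 52 lower genes in place of 74 and 85, with a median of all genes at 0.15, and median-of-ratios factors gave 59 and 119. Libraries with the same replicate number shared deviations with correlations of -0.024, 0.105 and 0.119, so the numbers were not taken as pairs; the replicate block left CCND1 as the 1 member that passed and gave 5 pathway genes. CCND2 had no fragments and CDKN2B few, and genes below the filter were left untested by their FPKM, not by their fragment number.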
